A study of Mus musculus with 16 samples.

Results

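The genes described are 8 transcription factors of the myeloid lineage, Cebpa, Cebpb, Cebpd, Cebpe, Spi1, Gfi1, Irf8 and Runx1, chosen by name and not by their values. They are 8 of 26595 features in the CD93 experiment, and 8 of 36930 in the drug experiment. The study used a mouse model of chronic myeloid leukemia (CML) and asked about CD93, a surface receptor, and metoclopramide (MCP), a drug given against nausea. RNA of bone marrow cells purified by flow sorting was amplified with the SMART-Seq v4 kit and sequenced in 16 libraries. LSK names sorted marrow stem and progenitor cells, and LSC the leukemia stem cells. All mice were labelled C57BL/6 and post natal week 8.

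In the CD93 experiment, WT LSK (2 libraries) and KO LSK (2) were naive cells of BL/6 and CD93-/- mice. WT LSC (3) and KO LSC (3) came from BL/6 recipients with CML, into which BL/6 or CD93-/- LSKs carrying BCR-ABL1-GFP had been injected. The recipients were not irradiated, so they kept their own marrow, and BCR-ABL1 was expressed from a transduced vector. In the drug experiment, Veh LSC (3) and MCP LSC (3) came from BL/6 CML mice made in the same way and given vehicle or MCP at 10 mg/kg. Titles call the drug samples LSC and another label calls them LSK, and the titles decided here. Nothing in the labels says that replicates are separate animals, so p-values measure only the spread between these samples, which may be technical.

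Spi1 encodes PU.1, an ETS factor that drives myeloid and B cell genes, and Runx1 encodes a core-binding factor needed for the emergence of blood stem cells. The C/EBP proteins bind DNA as leucine-zipper dimers: C/EBPalpha is required for granulocyte-monocyte progenitors, C/EBPbeta for emergency granulopoiesis, and C/EBPepsilon for late neutrophil granules. Gfi1, a zinc-finger repressor, favours the neutrophil fate and Irf8, an interferon regulatory factor, the monocyte and dendritic cell fate. In human CML, low IRF8 and BCR-ABL1 control of C/EBPalpha translation have been described.

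Cebpb and Irf8 were the 2 members that passed the test both between leukemic and normal WT cells and between KO and WT leukemic cells, so the 250 bases before the first annotated start of each are shown (RefSeq, GRCm38.p6, 5′ to 3′ on the strand of the gene, both plus). The Cebpb stretch is chr2:167688665-167688914 and that of Irf8 chr8:120736108-120736357. Capitals mark the only match to 5 motifs searched on both strands.
Cebpb: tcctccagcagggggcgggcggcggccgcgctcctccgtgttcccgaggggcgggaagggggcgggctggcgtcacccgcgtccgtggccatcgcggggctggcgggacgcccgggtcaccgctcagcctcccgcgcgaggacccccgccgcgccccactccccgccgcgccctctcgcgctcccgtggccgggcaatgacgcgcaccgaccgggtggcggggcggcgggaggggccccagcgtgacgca
Irf8: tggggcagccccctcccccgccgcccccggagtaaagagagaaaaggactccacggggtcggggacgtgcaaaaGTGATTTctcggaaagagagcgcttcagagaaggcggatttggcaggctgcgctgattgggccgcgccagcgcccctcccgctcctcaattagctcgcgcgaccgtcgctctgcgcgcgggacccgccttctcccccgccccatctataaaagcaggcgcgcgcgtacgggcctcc
The motifs were TTGCNNCAA for C/EBP, GAGGAAG for PU.1, TGTGGT for RUNX, AAATCAC for GFI1 and GGAANNGAA for an ETS-IRF pair. The capitals in the Irf8 stretch are a GFI1 match on the opposite strand, and 2.75% of 32851 promoter stretches of this length held one. C/EBP letters stood in 1.74% of them, PU.1 letters in 10.6%, RUNX letters in 14.05% and ETS-IRF letters in 6.99%. The Cebpb stretch was 81.6% G or C and held none of the 5 motifs. A match describes letters only.

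Values are reads per kilobase of feature, scaled to the mapped reads of the library (RPKM). The lowest value of each table, 0.003 for CD93 and 0.001 for the drug, stands for no signal. The number of features above that value was 14279 to 14906 in the LSK libraries, 5525 to 7956 in WT LSC, 1230 to 2967 in KO LSC, 15587 to 16447 in MCP LSC and 19554 to 20014 in Veh LSC. Estimated depth was 2700000 to 7600000 reads in the CD93 experiment, 4100000 to 8400000 in MCP LSC and 12900000 to 18800000 in Veh LSC. Of 12 genes that most cells express, all were above the lowest value in the LSK and drug libraries, 9 to 11 in WT LSC and 5 to 9 in KO LSC. Cd93, the deleted gene, was at 5.34 and 22.9 RPKM in WT LSK and 1.01 and 2.10 in KO LSK. In the library labelled KO LSC 2 it was at 44.3, against its label. It was at 0.003 in KO LSC 1 and 3, but also in WT LSC 1 and 2, with 5.74 in WT LSC 3. Its level thus cannot tell the genotype of KO LSC 1 and 3. Ly6a, which encodes the Sca-1 antigen of the LSK gate, was at 529 to 790.4 RPKM in LSK libraries and at most 5.41 in the WT and KO LSC libraries. Of 10 stem cell markers all were above the lowest value in LSK and drug libraries, 3 to 4 in WT LSC and 0 to 1 in KO LSC, where Kit was listed at 0.003 throughout. Summed over 8 mature neutrophil markers, WT LSC held 62240 to 109300 RPKM, KO LSC 31520 to 50930, and Veh LSC 173 to 189. S100a8 alone was at 35300 to 58650 in WT LSC and 11100 to 18540 in KO LSC. Of the 8 markers 4 to 7 were above the lowest value in WT LSC and 3 to 4 in KO LSC. Against LSK of the same genotype 6 stood higher and 2 lower in WT LSC, and 4 higher and 3 lower in KO LSC. The 8 macrophage markers summed to 11410 to 24150 RPKM in WT LSC, 13570 to 31410 in KO LSC and 36.2 to 45.4 in Veh LSC. They summed to 1865 to 3291 in WT LSK and 3848 to 4720 in KO LSK. Of these 7 to 8 were above the lowest value in WT LSC and 5 to 6 in KO LSC. Against LSK of the same genotype 6 stood higher and 2 lower in WT LSC, and 3 higher and 5 lower in KO LSC. By the stem cell markers, the LSC libraries of the CD93 experiment go against their label as stem cells. Those of the drug experiment held all 10 above the lowest value, some of them low. Ly6a was at 14.6 to 23.9 RPKM in Veh LSC and 8.43 to 23.3 in MCP LSC, and Procr at 0.162 to 1.58 in MCP LSC. The neutrophil and macrophage lists were split between genes, so their sums name no cell type.

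Detection of the 8 genes differed between the groups. WT LSK libraries 1 and 2 had 8 and 7 of them above the lowest value and both KO LSK libraries had 8. WT LSC libraries 1, 2 and 3 had 6, 7 and 5. The library labelled KO LSC 1 had 2, and those labelled KO LSC 2 and 3 had 0. All 6 drug libraries had all 8. The libraries with few of the 8 genes were those with few features of any kind, and how far the one accounts for the other was not tested. In such bulk samples fewer cells of a type and less RNA per cell cannot be told apart.

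**Figure D1:**
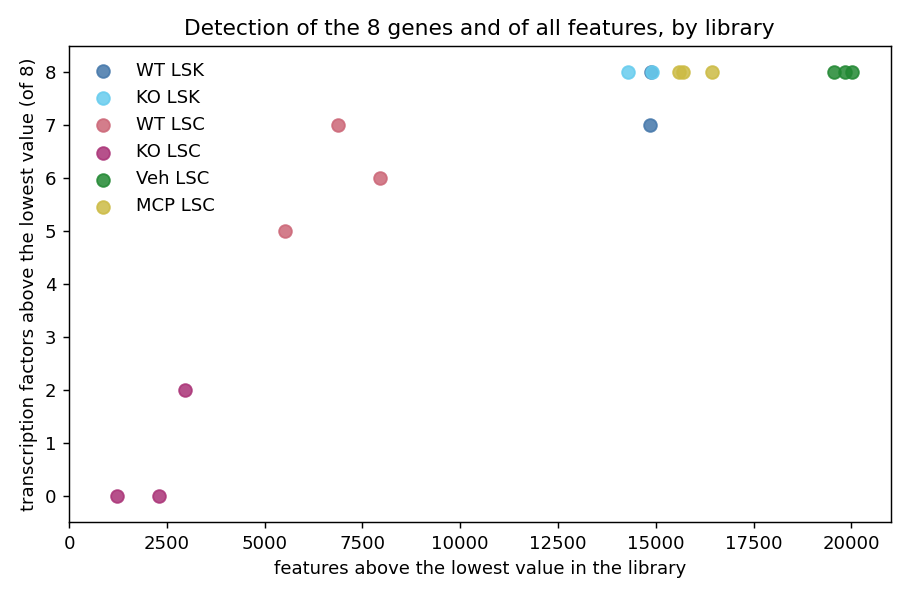
Features above the lowest value (x axis, number per library) and transcription factors above it (y axis, of 8), 1 point per library, coloured by group. The 3 KO LSC libraries stand at 1230 to 2967 features and 0 to 2 of the 8 genes, and the 6 drug libraries at 15587 to 20014 features and 8.

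**Figure D2:**
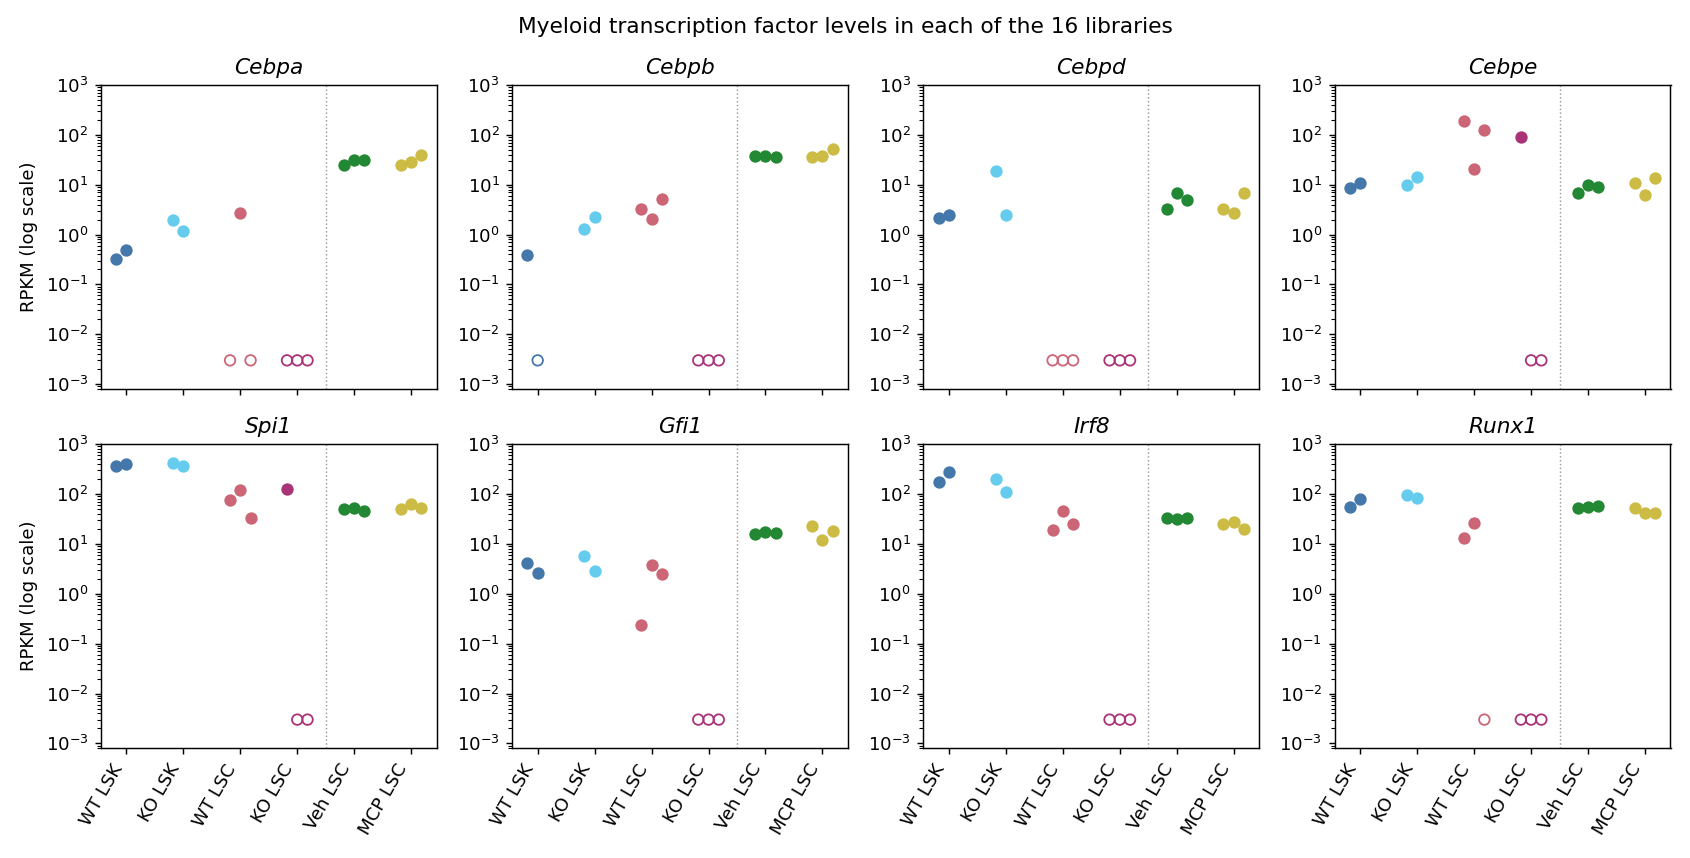
RPKM (log axis) of each gene in each library, replicates 1 to 3 from left to right within a group. Filled points are above the lowest value, open points are listed at 0.003, and the dotted line parts the 2 experiments, which are not compared. Irf8 shows 3 open points in KO LSC and none in WT LSC, while Cebpe and Spi1 each show 1 filled point in KO LSC.

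Among naive cells, Spi1, Irf8 and Runx1 stood highest. Spi1 (chromosome 2, 91082390 to 91115756, plus strand, GRCm38) was at 359 and 393 RPKM in WT LSK and at 423 and 361 in KO LSK, so the genotypes overlapped. Irf8 (chromosome 8, 120736358 to 120756694, plus) was at 175 and 282 in WT LSK and at 199.6 and 109 in KO LSK. Runx1 (chromosome 16, 92601466 to 92826149, minus) was at 54.5 and 78.3 in WT LSK and at 96.8 and 82.3 in KO LSK, both KO libraries above both WT libraries. The order in WT LSK by mean RPKM was Spi1 at 376, Irf8 at 228, Runx1 at 66.4 and Cebpe at 9.72, and the ranges of these neighbours did not overlap.

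The granulocytic factors were low in naive cells. Cebpe (chromosome 14, 54710360 to 54712174, minus, 2 exons) was at 8.75 and 10.7 RPKM in WT LSK and 9.68 and 14.2 in KO LSK. Gfi1 (chromosome 5, 107716657 to 107726036, minus) was at 4.21 and 2.66 in WT LSK and 5.66 and 2.89 in KO LSK. Cebpd (chromosome 16, 15887286 to 15891031, plus, a gene of 1 exon) was at 2.13 and 2.51 in WT LSK, 2.51 in KO LSK 2 and 18.9 in KO LSK 1, so 1 library set its KO mean. Cebpa (chromosome 7, 35119293 to 35121928, plus, 1 exon) was at 0.319 and 0.5 in WT LSK and 1.93 and 1.20 in KO LSK. Cebpb (chromosome 2, 167688915 to 167690418, plus, 1 exon) was at 0.386 and 0.003 in WT LSK and 1.31 and 2.28 in KO LSK. Both KO LSK libraries were above both WT LSK libraries for 4 of the 8, Cebpa, Cebpb, Cebpd and Runx1, as they were for 14.0% of all tested genes. The low values rest on few reads: an estimated 3.38 reads for Cebpb in WT LSK 1. Of 3237 genes at 20 to 60 RPKM in Veh LSC, 2.72% were below 2 RPKM in WT LSK. That share was 15.9% for the 88 with 1 exon and 6.06% for the 99 with at least 60% G or C. Cebpa (62.6% G or C) and Cebpb (67.2%) belong to both kinds, and the part of this in their low values was not tested.

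Between KO LSK and WT LSK, 0 of the 8 genes passed limma's moderated test at an adjusted p of 0.05 (Benjamini-Hochberg over all tested genes), while 1.83% of all 13485 tested genes did. Cebpb came nearest, at 1.80 ± 0.682 RPKM (SD, n = 2) in KO LSK against 0.195 ± 0.271 (n = 2) in WT LSK, a difference of 1.22 on the log2(RPKM + 1) scale (SE 0.36, limma adjusted p = 0.2208). It was also the 1 member with an unadjusted p under 0.05, which 1173 of the 13485 tested genes had. Irf8 differed by -0.58 (95% interval -2.35 to 1.19, limma adjusted p = 1), with overlapping groups. For Spi1 the interval was wider, from -5.12 to 5.23, because the spread was shared with the LSC libraries. Without KO LSK 2, Cebpd gave a log2 difference of 2.58 (limma adjusted p = 0.00064). This rests on the single library with 18.9 RPKM, assumed to vary like the other groups, of which all 6 LSC libraries are at 0.003, so this p carries no weight.

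Between KO LSK and WT LSK, in the 4 lists of receptors, primary granule genes, secondary and tertiary granule genes, and monocyte and dendritic cell genes, 0 genes passed limma's test in either direction, and 0, 1, 1 and 0 had an unadjusted p under 0.05.

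Between WT LSC and WT LSK, Cebpb rose and Irf8 fell, and the other 6 members did not pass. Cebpb was at 3.27, 2.05 and 5.19 RPKM in WT LSC 1, 2 and 3, all above the 0.386 and 0.003 of WT LSK. Behind these stood an estimated 15.3, 8.45 and 25.7 reads. The log2 difference was 1.87 (SE 0.33, limma adjusted p = 0.002015), and 1.45% of tested genes rose in this comparison. Irf8 was at 19.0, 46.7 and 25.2 in WT LSC, all below the 175 and 282 of WT LSK, with a log2 difference of -2.93 (SE 0.70, limma adjusted p = 0.009639). Of all tested genes 42.3% fell, so 1 of 8 falling is below that share. The Irf8 call was lost with estimated library weights (adjusted p = 0.1668) and without WT LSK 2 (adjusted p = 0.05131).

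Several of the other members moved widely without passing. Cebpe was at 187, 20.7 and 125 RPKM in WT LSC, above the 8.75 and 10.7 of WT LSK in each library, with a log2 difference of 2.91 (95% interval -1.67 to 7.49, limma adjusted p = 0.2813). Spi1 was at 77.5, 121 and 33.2 in WT LSC, below both WT LSK libraries (log2 difference -2.45, 95% interval -7.17 to 2.27, limma adjusted p = 0.3803). Runx1 was at 13.2 and 26.2 in WT LSC 1 and 2 and listed at 0.003 in WT LSC 3 (adjusted p = 0.07531). Each WT LSC library listed Cebpd at 0.003, while WT LSK held 2.13 and 2.51, and its limma adjusted p was 0.05016. Gfi1 was at 0.237, 3.73 and 2.52 and Cebpa at 0.003, 2.71 and 0.003 in WT LSC, overlapping with WT LSK. Without the library labelled KO LSC 1, which enters only through the shared spread, 4 of 8 members passed, Cebpb, Irf8, Spi1 (adjusted p = 0.03118) and Cebpe (adjusted p = 0.04348).

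In WT LSC each gene overlapped with its neighbour in the order of means. The mean of Cebpe was highest, at 111 ± 83.9 RPKM (SD, n = 3), followed by Spi1 at 77.2 ± 43.9, Irf8 at 30.3 ± 14.5 and Runx1 at 13.1 ± 13.1, while every library had Cebpe, Spi1 and Irf8 above the highest values of Cebpb, Gfi1, Cebpa and Cebpd. In WT LSK the same 4 genes had run from Spi1 down to Cebpe. The median log2 difference of the 8 was -1.20, beside -1.94 over all tested genes. With quantile scaling the median of the 8 was 0.79, and Gfi1 passed as higher in WT LSC, at 1.47.

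The genes listed for the primary granules, which hold the neutrophil serine proteases, were split in WT LSC. Of 12 tested, 4 rose and 2 fell. Ctsg, Elane and Prtn3, which encode cathepsin G, neutrophil elastase and proteinase 3, were among those that rose. Ctsg was at 7103 ± 1678 RPKM (SD, n = 3) against 340.7 ± 99.0 (n = 2), a log2 difference of 4.38, Elane at 9335 ± 1550 against 1022 ± 29.8 and Prtn3 at 6341 ± 1100 against 875 ± 297. Clec11a, on this list though it encodes a growth factor of the marrow, was among those that fell. It was at 0.003 in every WT LSC library against 4.997 ± 1.07 in WT LSK (n = 2). Its call was lost with quantile scaling (log2 difference -0.03, limma adjusted p = 0.9035). With estimated library weights the calls of Ctsg, Elane and Prtn3 were lost (limma adjusted p = 0.6325, 0.9407 and 0.8128). In sum, mature neutrophil markers moved with these genes, from 1944 to 5566 RPKM in WT LSK to 62240 to 109300 in WT LSC. Of the 8 markers 3 rose and 0 fell, and their part in the result was not tested.

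Over all tested genes 42.3% fell and 1.45% rose in WT LSC, and the other lists are to be read against these shares. Of 36 tested among 40 other myeloid regulators and partners of these factors 20 fell and 1, Zeb2, rose (named after its value was seen). Among those that fell was Gfi1b, the paralog of Gfi1 in erythroid and megakaryocytic cells, listed at 0.003 in each WT LSC library against 65.5 ± 6.55 RPKM (SD, n = 2). Cebpg, a dimer partner of the other C/EBP proteins, was at 0.271 ± 0.464 (n = 3) against 42.2 ± 4.84, and Runx2, a relative of Runx1, at 0.482 ± 0.8302 against 13.6 ± 3.56, a call lost with quantile scaling (adjusted p = 0.5741). Irf5, a relative of Irf8, differed by -5.39 on the log2 scale. Of 16 receptor genes 4 fell and 0 rose, the cytokine receptors Csf2rb, Csf2rb2, Il1r1 and Il6ra; the call of each was lost with quantile scaling and Il6ra then stood higher, at 0.84. The call of Il6ra was also lost in 11 of its other alternatives. Of 13 secondary and tertiary granule genes Camp, a cathelicidin, rose to 6266 ± 2952 from 374 ± 223, and Ncf1, an oxidase subunit, fell to 0.738 ± 1.27 from 59.2 ± 42.1. The Camp call was lost with library weights (adjusted p = 0.5627). Of 16 monocyte and dendritic cell genes 3 fell, Psap, Ciita and Cx3cr1, of which Ciita and Cx3cr1 stood higher with quantile scaling, at 0.30 and 0.36. The Psap call was lost without WT LSK 2 (adjusted p = 0.05171).

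Between the libraries labelled KO LSC and WT LSC, Cebpb and Irf8 were lower. Every KO LSC library listed Cebpb at 0.003, while WT LSC held 3.27, 2.05 and 5.19 RPKM, and its log2 difference was -2.11 (SE 0.29, limma adjusted p = 0.002782). Irf8 too stood at 0.003 in each, while WT LSC held 19.0, 46.7 and 25.2, and its log2 difference was -4.87 (SE 0.62, limma adjusted p = 0.001835). These 2 were the 2 of 8 that fell, where 8.74% of all tested genes did. The tested genes were filtered over all 10 libraries, LSK included. With only these 2 groups filtered and fitted, 862 of 6074 tested genes fell, and 1 of 6 tested members. The sizes depend on the added 1, so no fold is given. The KO LSC values of both genes had an SD of 0, so no SE or p of these 2 measures spread in that group. For scale, 3 reads would have given Cebpb 0.551, 0.530 and 0.370 RPKM in the libraries labelled KO LSC 1, 2 and 3, by the estimated depths, and this covers counting error only. Cebpb missed the threshold when only these 2 groups were fitted (adjusted p = 0.06931) or with KO LSC 1 alone (adjusted p = 0.07451), and Irf8 with quantile scaling (adjusted p = 0.0682).

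The library labelled KO LSC 1 stood apart from the other 2 of its group. Spi1 was at 125 RPKM there, above the 77.5, 121 and 33.2 of WT LSC, and listed at 0.003 in the libraries labelled KO LSC 2 and 3. Cebpe was at 88.5 there, inside the WT LSC range of 20.7 to 187, and at 0.003 in the other 2. With these unequal libraries the log2 difference was -3.78 for Spi1 (95% interval from -8.00 to 0.45, limma adjusted p = 0.2992) and -4.16 for Cebpe (adjusted p = 0.2315). Without KO LSC 1 both passed, at -6.10 (adjusted p = 0.002103) and -6.32 (adjusted p = 0.005142). With KO LSC 1 as the only library of its group both stood higher than in WT LSC, by 0.87 (adjusted p = 0.8001) and 0.16 (adjusted p = 1), assuming that it varies like the other groups. The library labelled KO LSC 2, whose Cd93 level went against its label, is 1 of the 2 left out there.

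Every KO LSC library also listed Runx1, Gfi1, Cebpa and Cebpd at 0.003. Runx1 was also at 0.003 in WT LSC 3 (log2 difference -2.86, limma adjusted p = 0.2115) and passed without that library, at -4.29 (adjusted p = 0.001079). Gfi1 gave -1.45 (adjusted p = 0.1628) and passed without WT LSC 1, at -2.02 (adjusted p = 0.005785). Cebpd was at 0.003 in both groups, so no difference could be measured. The median log2 difference of the 8 genes was -2.48, beside -0.77 over all tested genes. The latter include genes tested for their LSK values. Over the 6074 genes tested with only these 2 groups the median was -2.43, close to that of the 8.

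Over all tested genes 8.74% fell in KO LSC against WT LSC, and the lists are to be read against this share. Of the 36 regulators and partners 6 fell in KO LSC and 0 rose. Cux1, a homeodomain repressor, stood at 0.003 in each KO LSC library, while it was at 105 ± 22.2 RPKM (SD, n = 3) in WT LSC. Nfe2, a factor of megakaryocytes and red cells, was at 0.003 in all of them against 80.4 ± 40.6, and Spic, a relative of PU.1 in red pulp macrophages, at 0.003 against 146 ± 144. Zeb2, a zinc-finger factor, was at 0.154 ± 0.262 (n = 3) against 77.8 ± 33.2. Of 12 primary granule genes only Lyz2 fell, and of 13 secondary and tertiary granule genes Fpr1 and Cybb fell, each listed at 0.003 in KO LSC. The Lyz2 call was lost in 14 of 18 alternatives (adjusted p up to 0.1814) and that of Cybb in 8 of 18 (up to 0.2175). Of 16 receptor genes 0 passed limma's test (2 at an unadjusted p under 0.05), and of 16 monocyte and dendritic cell genes 0 passed (0 at that p).

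Against KO LSK, the libraries labelled KO LSC were lower for 6 of 8 members, where 61.7% of all tested genes were lower and 0.564% higher. Irf8 gave -7.21 (SE 0.70, limma adjusted p = 6.502e-05) and Runx1 -6.49 (adjusted p = 0.002703). Spi1 gave -6.29 (adjusted p = 0.02764), but its call was lost in 9 alternatives, one of them KO LSC 1 as the only library of its group, at -1.64 (adjusted p = 0.1409). Cebpb, Cebpd and Gfi1 also passed as lower, at -1.46, -3.06 and -2.34, but with quantile scaling all 3 stood higher in KO LSC, at 0.84, 0.08 and 0.47. Each KO LSC library listed Irf8, Runx1, Cebpb, Cebpd and Gfi1 at 0.003, with an SD of 0. The sizes for these genes thus depend on the added 1, and their SE and p measure no spread in KO LSC. Cebpa (adjusted p = 0.05952) and Cebpe (adjusted p = 0.514) did not pass. The median of the 8 was -2.70, beside -3.06 over all tested genes, and 28 of the 36 regulators and partners fell with 0 rising.

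The genotype difference in LSC was also set against that in LSK within 1 model. It was lower in LSC for Cebpb, by a log2 difference of -3.33 (SE 0.46, limma adjusted p = 0.008663), and for Irf8, by -4.28 (SE 0.98, adjusted p = 0.04587). These were 2 of 8 members, and 5.15% of tested genes passed in that direction. Both calls were lost with quantile scaling (adjusted p = 0.1183 and 0.7043) and that of Irf8 without any 1 LSK or KO LSC library.

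**Figure D3:**
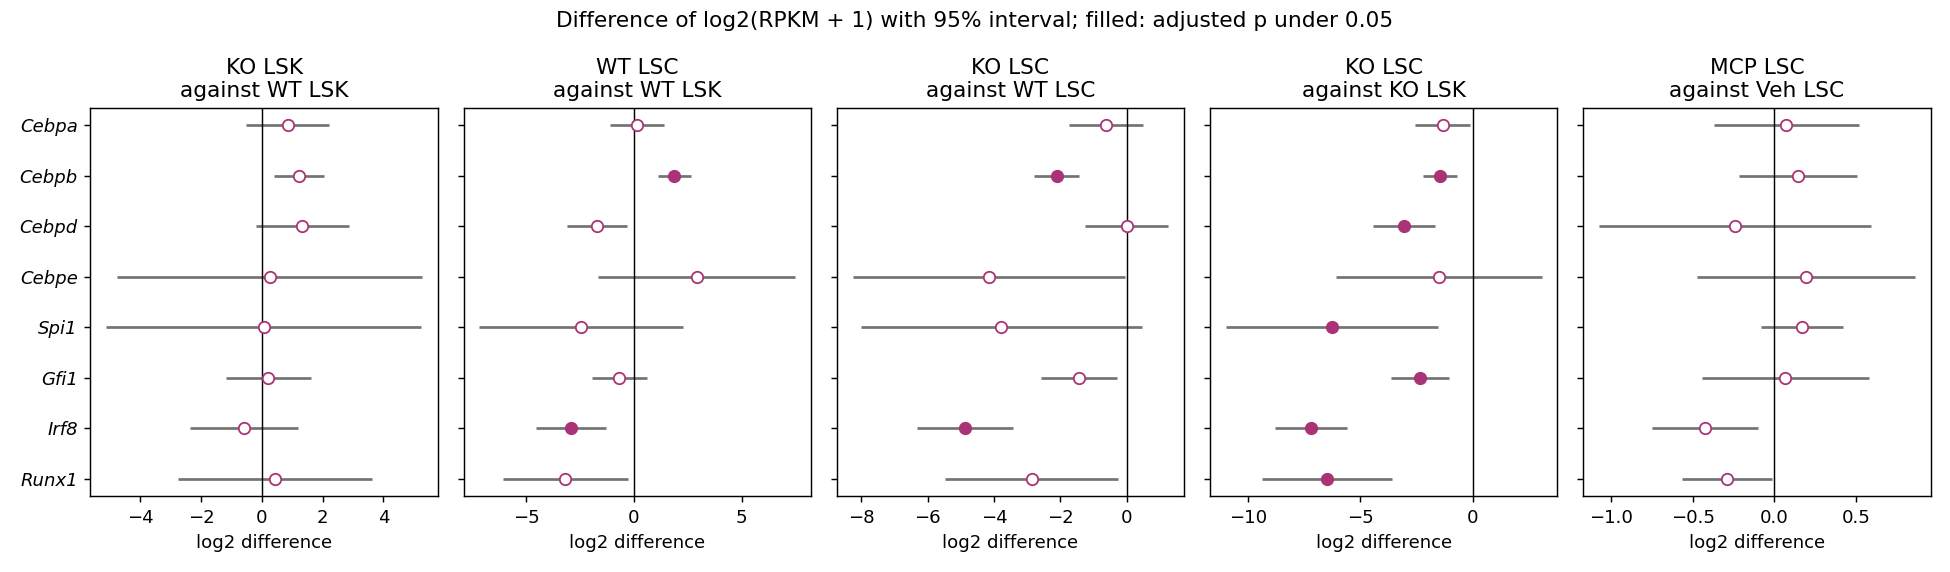
Differences of log2(RPKM + 1) for each gene in 5 comparisons of groups (x axes differ in range), with 95% intervals from limma. Filled points passed an adjusted p of 0.05: Cebpb and Irf8 in 3 panels each, 6 genes in KO LSC against KO LSK, and none in KO LSK against WT LSK or in MCP LSC against Veh LSC.

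In the drug experiment all 8 genes were above the lowest value in every library. By mean RPKM in Veh LSC the order was Runx1 at 54.9 ± 2.12 (SD, n = 3), Spi1 at 49.0 ± 2.69, Cebpb at 37.1 ± 1.81, Irf8 at 32.5 ± 0.901, Cebpa at 28.9 ± 4.06, Gfi1 at 16.4 ± 0.788, Cebpe at 8.55 ± 1.501 and Cebpd at 5.02 ± 1.71. Among neighbours in this order only Irf8 and Cebpa overlapped. In MCP LSC every neighbour overlapped with the next. Cebpb stood at the 81.4 to 82.7 percentile of the detected features in Veh LSC, while in WT LSC of the CD93 experiment it stood at 17.8 to 23.4. The 2 tables were normalised apart, so these levels are not tested against each other.

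Between MCP LSC and Veh LSC, 0 of the 8 genes passed, where 2.32% of the 14005 tested genes did. Irf8 was at 25.4, 27.4 and 19.8 RPKM in MCP LSC 1, 2 and 3 and at 32.7, 31.5 and 33.3 in Veh LSC, all MCP libraries below all Veh libraries. Its log2 difference was -0.43 (SE 0.14, 95% interval -0.75 to -0.10, limma adjusted p = 0.1339). Runx1 was at 52.7, 41.5 and 41.0 in MCP LSC and at 53.6, 53.8 and 57.4 in Veh LSC, again without overlap (log2 difference -0.29, 95% interval -0.56 to -0.02, limma adjusted p = 0.1984). These 2 were the members with an unadjusted p under 0.05, which 3226 of the 14005 tested genes also had. Of all tested genes 25.6% had every MCP library below every Veh library, so 2 of 8 is near that share.

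The other members overlapped between vehicle and drug. Spi1 was at 50.2, 62.2 and 53.3 RPKM in MCP LSC and 49.2, 51.5 and 46.2 in Veh LSC (log2 difference 0.17, 95% interval -0.08 to 0.42, limma adjusted p = 0.3853). Cebpa was at 24.7, 28.5 and 39.3 against 24.2, 31.5 and 31.0 (0.07, interval -0.37 to 0.52). Cebpb was at 35.2, 37.8 and 52.2 against 37.9, 38.4 and 35.1 (0.15, interval -0.21 to 0.50). MCP LSC 3 held the highest value of both genes, and without it both stood slightly below vehicle, at -0.11 and -0.02. Gfi1 was at 22.4, 12.1 and 18.6 against 15.5, 17.1 and 16.5 (0.07, interval -0.44 to 0.57). Cebpe was at 10.6, 6.34 and 13.8 against 6.84, 9.65 and 9.16 (0.19, interval -0.47 to 0.86), and Cebpd at 3.22, 2.72 and 6.72 against 3.30, 6.72 and 5.03 (-0.24, interval -1.07 to 0.59). Of the 8 intervals all stayed below 1 on this scale and 7 above -1, while that of Cebpd reached -1.07.

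Among genes that these factors are known to control, some passed with MCP. Of 12 primary granule genes 5 rose and 0 fell, where 0.521% of all tested genes rose. Elane was at 899 ± 30.1 RPKM in MCP LSC (SD, n = 3) against 489 ± 31.4 in Veh LSC, a log2 difference of 0.88 (SE 0.07, limma adjusted p = 0.002857). Ctsg was at 537 ± 15.5 against 353 ± 12.0 (0.60), Prtn3 at 466 ± 26.2 against 292 ± 14.8 (0.67) and Mpo, which encodes myeloperoxidase, at 2753 ± 82.2 against 1965 ± 74.0 (0.49). The Elane call held in each of 12 alternatives, while those of Ctsg, Prtn3 and Mpo were lost without some Veh libraries, with adjusted p up to 0.113. Of 10 secondary and tertiary granule genes 0 passed limma's test, and 2 had an unadjusted p under 0.05.

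Of 15 tested monocyte and dendritic cell genes 4 fell and 0 rose, where 1.8% of all tested genes fell. Cd74, the invariant chain of MHC class II, was at 20.4 ± 4.02 RPKM in MCP LSC (SD, n = 3) against 53.1 ± 3.71 in Veh LSC, a log2 difference of -1.35 (SE 0.15, limma adjusted p = 0.01139). Csf1r, the M-CSF receptor and a PU.1 target, was at 1.15 ± 0.528 against 5.47 ± 0.354 (-1.62, adjusted p = 0.03216), and Ly86 at 0.239 ± 0.412 against 3.88 ± 0.0688 (-2.03, adjusted p = 0.02515). Klf4, a zinc-finger factor of monocytes, was at 5.05 ± 1.25 against 15.7 ± 0.523 (-1.48, adjusted p = 0.02223). Without any 1 of the Veh libraries, or without the filter for low genes, these 4 calls were lost, with the same sign. Those of Csf1r, Ly86 and Klf4 were also lost with the replicate number as a block. Quantile scaling lost that of Csf1r (limma adjusted p = 0.05182) and a pseudocount of 0.1 that of Ly86 (adjusted p = 0.06446).

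Among 35 tested regulators and partners 4 fell and 0 rose with MCP: Klf4, Egr1, Gata2 and Cux1. Egr1, an early-response factor, was at 85.6 ± 4.37 RPKM (SD, n = 3) against 148 ± 5.68, and Gata2, a stem and mast cell factor, at 48.0 ± 5.85 against 79.4 ± 2.52. The Gata2 call was lost in 5 of 12 alternatives, among them leaving out any 1 Veh library (adjusted p up to 0.1275), and that of Egr1 without Veh LSC 3 (0.06404). Cux1 was at 79.1 ± 7.17 against 109.5 ± 5.09 and its call was lost in 11 of 12 alternatives. Of 15 receptor genes 2 fell, Csf1r and Csf2rb, the latter at 17.9 ± 0.590 against 29.2 ± 2.20 and with its call lost in 7 of 12 alternatives (adjusted p up to 0.1847). The median log2 difference was -0.39 for the regulators and partners, 0.36 for the primary granule genes, -0.49 for the monocyte and dendritic cell genes, 0.07 for the 8 factors and -0.18 over all tested genes.

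Other measures also moved between vehicle and drug. The 8 mature neutrophil markers summed to 244 to 349 RPKM in MCP LSC and 173 to 189 in Veh LSC. Of 5 tested 1 rose, S100a8, and 0 fell, with a median log2 difference of 0.02, and Ltf stood lower, at 0.345 to 1.56 against 2.32 to 2.74. The 6 mast cell and basophil markers summed to 36.8 to 46.8 in MCP LSC and 187 to 208 in Veh LSC, and 4 of the 6 fell. The 10 stem cell markers summed to 205 to 215 in MCP LSC and 321 to 338 in Veh LSC, and 4 fell. Estimated depth was also lower in every MCP library than in every Veh library. The part of these measures in the drug differences was not tested.

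**Figure D4:**
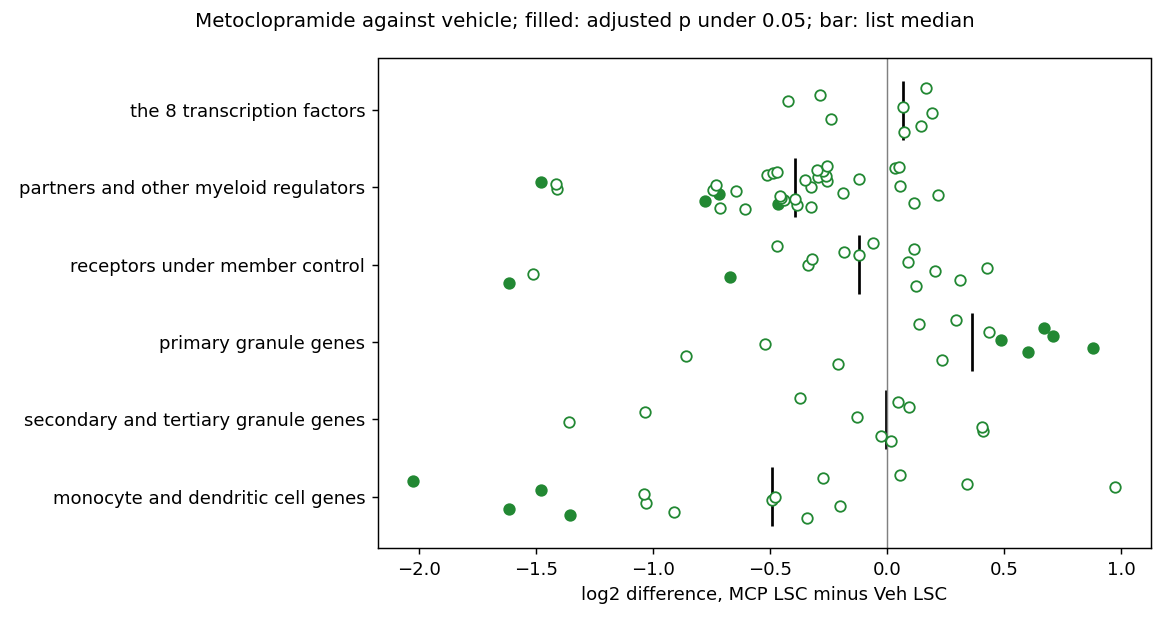
Log2 difference between MCP LSC and Veh LSC (x axis) for each tested gene of 6 lists, with the median of each list as a bar. Filled points passed an adjusted p of 0.05: 5 primary granule genes to the right, 4 monocyte and dendritic cell genes, 4 regulators and 2 receptors to the left, and none of the 8 transcription factors.

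Some members share annotated exon bases with a gene on the opposite strand, and the counting is not stated to use strand, so their reads may be mixed. Tmem189 overlaps 312 of the 1504 exon bases of Cebpb. It was at 2.38, 0.895 and 0.756 RPKM in WT LSC 1, 2 and 3 and at 3.80 and 8.11 in WT LSK. WT LSK thus stood above WT LSC for Tmem189 and below it for Cebpb. In KO LSK 1 and 2 Tmem189 was at 18.5 and 6.78 and Cebpb at 1.31 and 2.28. Every KO LSC library listed both genes at 0.003. The part of mixed reads in the Cebpb values was not tested. Spidr overlaps 562 of the 3746 exon bases of Cebpd, A430072P03Rik 101 of the 3187 of Gfi1, Gm45091 51 of the 2636 of Cebpa and Gm26626 106 of the 12025 of Runx1. No annotated gene shared exon bases with Spi1, Cebpe or Irf8 (GENCODE M21).

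The genes whose pattern was most like each member were ranked by Pearson's r of log2(RPKM + 1) over the 10 libraries of the CD93 experiment, among 7717 genes. Those nearest Irf8 were Uba7 (r = 0.996), Rin3 (0.996) and Chmp1b (0.994), and those nearest Cebpb were Zfpm1 (0.951), Kcnk12 (0.947) and Klf13 (0.921). Over the 6 drug libraries, among 8933 genes, Stard4, Dusp5 and Fam129b (0.997 each) were nearest Irf8 and Ahcyl1 (0.998), Wrn (0.997) and Gid4 (0.996) nearest Runx1. Across the members the highest r was 0.951 to 0.998 in the CD93 experiment. These points share depth and the number of features detected, and the values are a description only.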

How the data were processed

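RNA of sorted mouse bone marrow cells was sequenced in 16 libraries grouped by their titles. The authors deposited 1 normalised value per feature, whose unit no label names and which its range and totals fit as RPKM. Mapping was to GRCm38 (mm10), per the submitters' processing notes; the aligner and the counting tool were not given in the sources used here. Values were analysed as log2(RPKM + 1) with limma 3.58.1 (R 4.3.3, trend in the prior variance, two-sided), with 1 model for the 10 libraries of the CD93 experiment and 1 for the 6 of the drug experiment. The test covered genes reaching 1 RPKM in 2 or more libraries, 13485 and 14005 of them with all 8 members included, and p-values were adjusted by Benjamini-Hochberg over all of them, with a threshold of 0.05. A log2 difference on this scale understates the change of low genes.

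Members, lists and comparisons were chosen with earlier results of these data known. All 8 members and up to 4 passing genes of each list were named, by smallest adjusted p. Pattern-like genes were the 3 with the highest r among tested genes with a mean of at least 5 RPKM. Spi1 was found in the CD93 table under its synonym Sfpi1. Depth was estimated from the steps between low values and has no error attached; that of KO LSC 3 is uncertain by a factor of 2. SMART-Seq reads carry no molecular identifiers, so read numbers cover counting error only. The fit was also run on simulated data, but the outcome is not given here, so no call rests on it. In particular, it is not shown here how the fit behaves for groups with every library at the lowest value. Alternatives were quantile scaling, other filters, a pseudocount of 0.1, library weights, only the compared groups, a replicate block and leaving out each library. RefSeq held promoters for 5 of the 8 members. The list of regulators and partners is not reported here for KO LSK against WT LSK.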

Additional observations from a re-analysis of the deposited data

Results flagged for a closer look

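Cebpb and Irf8 stood out because the KO minus WT difference in LSC differed from that in LSK by a test of the difference itself. For Cebpb it was -3.33 on the log2(RPKM + 1) scale (limma adjusted p = 0.008663): all 3 KO LSC libraries were below all 3 WT LSC libraries, and both KO LSK libraries above both WT LSK libraries. For Irf8 it was -4.28 (limma adjusted p = 0.04587): all 3 KO LSC libraries were below all 3 WT LSC libraries, while the LSK genotypes overlapped. Every KO LSC value behind both is listed at 0.003, in libraries with 1230 to 2967 features above that value. Both p-values thus measure no spread in KO LSC.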

How the results depend on the processing

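The low number of features in KO LSC limits every comparison that uses it. The number of members called was 6 in KO LSC against KO LSK and 3 with quantile scaling, a mean of at least 5 RPKM or KO LSC 1 as the only library (an alternative added after seeing the data). In KO LSC against WT LSC it was 2, and 1 under those 3 settings and with only the compared groups fitted. In WT LSC against WT LSK it was 2, but 1 with a mean of at least 5 and 4 with quantile scaling. With a mean of at least 5 only 4 of the 8 members were tested in the CD93 experiment. With only the compared groups fitted, 6 were tested in KO LSC against WT LSC. Members not tested there could not be called. The test of the difference between genotype effects called 2, but 1 with library weights or a mean of at least 5 and 0 with quantile scaling or KO LSC 1 alone. Leaving out 1 library gave 2 to 4 called in KO LSC against WT LSC (4 without KO LSC 1), 0 to 1 in KO LSK against WT LSK (1 without KO LSK 2), 1 to 4 in WT LSC against WT LSK (1 without WT LSK 2, 4 without KO LSC 1) and 1 to 3 for the difference between genotype effects. MCP against Veh called 0 under every alternative run. In the main fit 2 members had an unadjusted p under 0.05, and 0 to 2 in the alternatives (0 without Veh LSC 1 or without Veh LSC 3). Why calls changed was not tested beyond the smaller numbers of libraries or genes.

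Quantile scaling moved the median log2 difference of all tested genes from -3.06 to 0.12 in KO LSC against KO LSK, from -1.94 to 0.23 in WT LSC against WT LSK, from -0.77 to 0.02 in KO LSC against WT LSC and from -0.18 to -0.0049 in MCP against Veh. With it the sign turned in KO LSC against KO LSK for Cebpa (0.88), Cebpb (0.84), Cebpd (0.0846), Cebpe (1.501) and Gfi1 (0.47), in WT LSC against WT LSK for Cebpd (0.30), Gfi1 (1.47), Ciita (0.30), Cx3cr1 (0.36) and Il6ra (0.84), in KO LSC against WT LSC for Cebpa (0.0097) and in KO LSK against WT LSK for Spi1 (-0.21). With KO LSC 1 alone it turned for Cebpe against KO LSK (2.81) and WT LSC (0.16), and for Spi1 against WT LSC (0.87) and between genotype effects (0.81). With a pseudocount of 0.1 Cebpa turned in WT LSC against WT LSK (-0.69). Leaving out 1 library gave ranges that cross 0 in MCP against Veh for Cebpa (-0.11 to 0.21), Cebpb (-0.0232 to 0.25), Cebpe (-0.0364 to 0.47) and Gfi1 (-0.12 to 0.30), in WT LSC against WT LSK for Cebpa (-0.49 to 0.45), and in KO LSK against WT LSK for Gfi1 (-0.17 to 0.61) and Spi1 (-0.0576 to 0.17).

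Whether replicate numbers pair the samples cannot be decided from these values. Deviations of same-numbered libraries correlated at -0.0516 to 0.0451, except -0.282 between WT LSK and KO LSK. With 2 libraries in each of these groups, the crossed numbers gave 0.282 by construction. With the replicate number as a block, 5 members were called in KO LSC against KO LSK and 0 in the difference between genotype effects, and the other counts did not move. With the KO LSK numbers crossed, also chosen after seeing the data, 0 members were called.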
